A study of Homo sapiens with 12 samples.

Results

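Homologous recombination and the Fanconi anemia pathway are the routes by which a dividing cell repairs broken DNA from an intact copy and takes crosslinked strands apart. This report describes the mRNA of 36 listed genes of both routes in the cell line NCI-H446, derived from a small cell lung cancer. The members were chosen by gene symbol from the roles of their products, with earlier results of these data known. Of the 36 symbols 35 were found among the 34886 gene symbols of the mRNA count table, and UBE2T is not analysed here. All 35 passed the filter on low counts.

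The tested cells received 40 µM CAPE, the phenethyl ester of caffeic acid known from bee propolis, and were harvested after 8 h (3 mRNA libraries, CAPE 1 to CAPE 3). The control cells received the same volume of the solvent dimethyl sulfoxide (DMSO 1 to DMSO 3). All 6 libraries are of the same line, with no genetic change, and nothing in the labels ties replicates to cultures of their own. The p-values thus cover the spread among these libraries, which may be technical. Small RNA libraries of the same study are not used here.

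In homologous recombination the MRE11-RAD50-NBN complex and CtIP (the product of RBBP8) trim the broken ends, BRCA1, PALB2 and BRCA2 prepare the end for pairing with the intact copy, and nucleases resolve the joined molecules. In the Fanconi anemia pathway a core complex attaches ubiquitin to the FANCD2-FANCI clamp at a crosslink, which calls in nucleases and the recombination factors. Many of these genes are known to be transcribed most strongly in S phase, when a sister copy is at hand.

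The libraries held 17569997, 17650893 and 17993349 estimated counts in CAPE and 17770295, 17913069 and 20917508 in DMSO. DMSO 3 stood apart from the other 5 libraries: 16207 genes were detected in it, against 17864 to 18587 in the others, and its composition factor (TMM) was 0.699 against 1.07 to 1.09. Its median difference from DMSO 1 and 2 was -1.02 in log2 CPM for the decile of genes with the longest transcripts and 0.94 for the decile with the shortest. Results are therefore given with and without this library. Neuroendocrine factors that define classic small cell lung cancer were close to absent, with NEUROD1, INSM1, CHGA and NCAM1 at most 0.106 CPM (normalised counts scaled to a common library total) in any library. The 8 neuroendocrine markers summed to 170.4 to 188.5 CPM in CAPE and 38.48 to 55.01 CPM in DMSO, nearly all of it ENO2 (169 to 188 CPM in CAPE, 37.8 to 53.7 CPM in DMSO). The 3 epithelial markers summed to 1121 to 1183 CPM in CAPE and 1276 to 5346 CPM in DMSO, nearly all of it keratins: KRT8 measured 759 to 802 CPM in CAPE and 873 to 3421 CPM in DMSO, and KRT18 354 to 379 CPM in CAPE and 397 to 1924 CPM in DMSO. EPCAM measured 1.96 to 2.18 CPM in CAPE and 1.32 to 1.67 CPM in DMSO. The 7 markers of other cells summed to 69.95 to 74.61 CPM in CAPE and 69.44 to 87.51 CPM in DMSO. Among them the T cell gene CD3E was at 0 in every library. The other leukocyte markers were CD68, at 24.1 to 27.3 CPM in CAPE and 23.5 to 49.6 CPM in DMSO, and PTPRC, at 0.634 to 1.43 CPM in CAPE and 0.205 to 0.527 CPM in DMSO. The fibroblast gene COL1A1 measured 24.9 to 27.1 CPM in CAPE and 17.8 to 23.0 CPM in DMSO, and DCN measured 16.5 to 17.8 CPM in CAPE and 15.9 to 21.7 CPM in DMSO. Their part in the results was not tested.

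With CAPE the members moved little and in both directions. Without DMSO 3, 8 of the 35 members rose and 4 fell at an adjusted p under 0.05 (edgeR's quasi-likelihood test, adjusted over all 13919 genes tested). EXO1, FANCB, FANCI, EME1, RBBP8, BRCA2, FANCG and FANCD2 were the 8 higher, and ATR, FANCF, RAD50 and FANCE the 4 lower. The number passing became 5 with DESeq2 (EXO1, FANCI and RBBP8 higher, ATR and RAD50 lower), 7 with no filter on low counts (5 higher, 2 lower) and 4 with limma on log2(TPM + 1) (all higher). The 12 are 34.3% of the members, where 41.2% of all genes passed in that fit (20.4% higher, 20.8% lower). Log2 fold changes of the 35 ran from -0.42 to 0.43 with a median of 0.12, beside a median of 0.00 over all genes. Of the 35, 20 had a log2 fold change above 0, where 50.3% of all genes did. No member passed with a change of more than 1.5-fold, and 1671 of all genes did. At an unadjusted p under 0.05 the members numbered 8 with DESeq2, 16 with no filter (edgeR) and 12 on TPM (limma). Over all genes tested these numbers were 5619, 7176 and 5024.

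With all 6 libraries no member passed (edgeR's quasi-likelihood test, 0 of 35, smallest adjusted p = 0.165 for EXO1), where 1.95% of 13595 genes did. At an unadjusted p under 0.05 there was 1 member, EXO1. DESeq2 also called 0 members with 6 libraries. The voom method of limma, with a weight estimated for each library, gave DMSO 3 a weight of 0.02 and the others 2.02 to 2.46. It called 10 members (6 higher, 4 lower), and its number of calls over all genes is given further below. At an unadjusted p under 0.05 voom gave 16 of the 35 members and 6708 of the 13595 genes. The median log2 fold change of the members with 6 libraries was 0.20, beside -0.01 over all genes, and 26 of the 35 were above 0, where 49.2% of all genes were. In that set 12 members lay higher and 3 lower in all 3 CAPE libraries than in all 3 DMSO libraries, where 21.4% and 20.6% of all genes did.

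**Figure D1:**
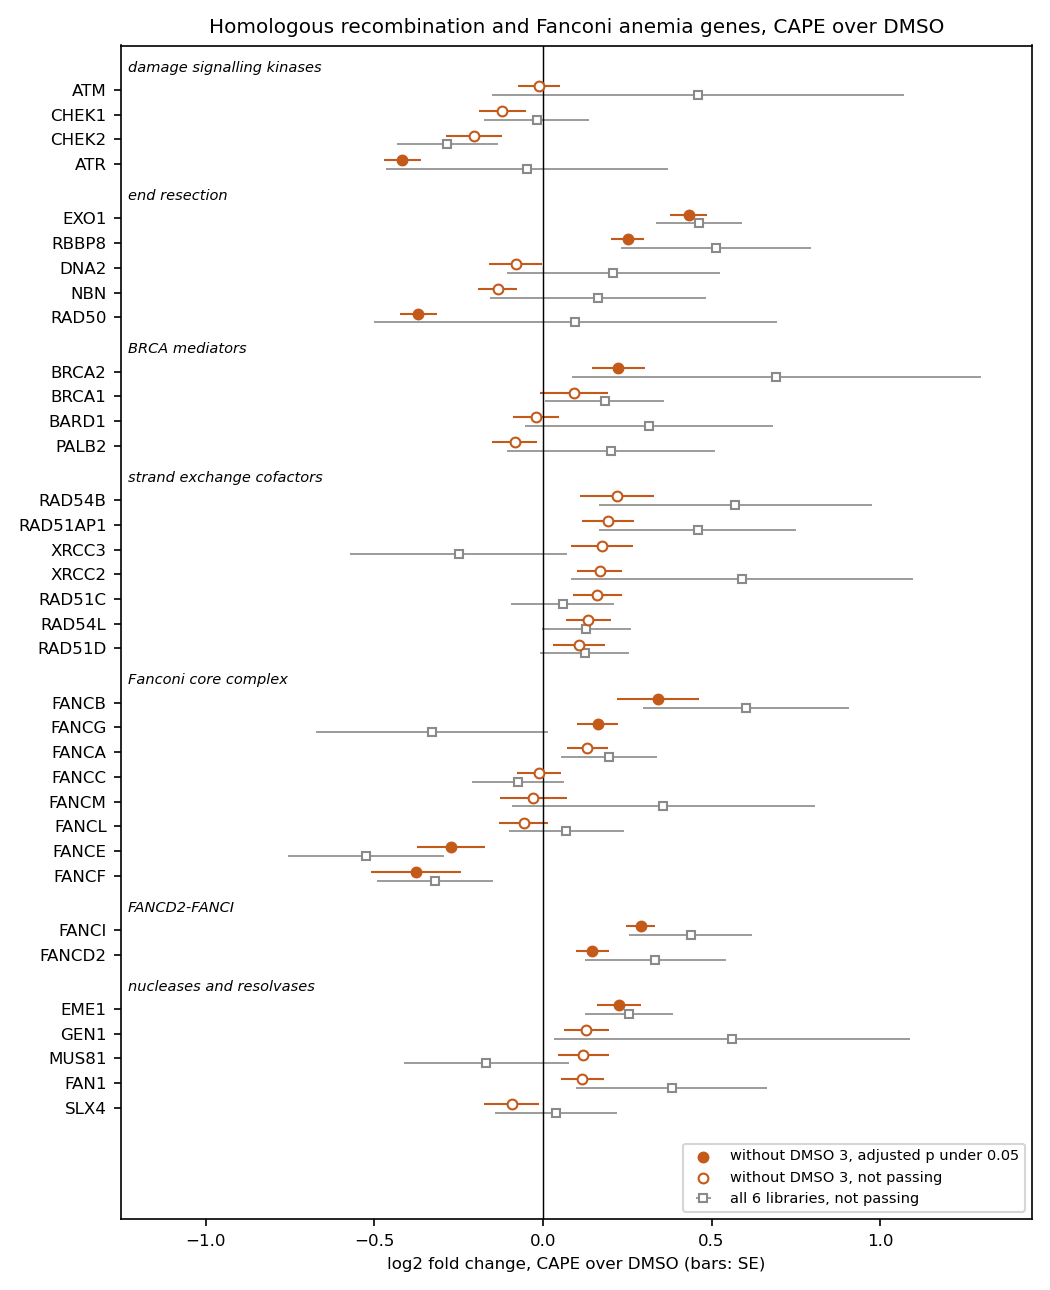
Log2 fold change of CAPE over DMSO with its SE for 35 genes, grouped by role, from the fit without DMSO 3 (circles, filled where the adjusted p was under 0.05) and from the fit of all 6 libraries (grey squares, none passing). Circles lie between -0.42 and 0.43, and SEs are wider with DMSO 3 included, most of all for BRCA2, ATM and RAD50.

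The kinases that signal DNA damage come first. ATR, the kinase called to single-stranded DNA at stalled forks and trimmed ends (chromosome 3, 142449235 to 142578733, GRCh38), measured 62.2, 64.8 and 61.0 CPM in CAPE, against 82.1, 84.7 and 27.2 CPM in DMSO 1, 2 and 3. All 3 CAPE libraries lay below DMSO 1 and DMSO 2 and above DMSO 3. ATR fell by 0.42 in log2 units without DMSO 3 (edgeR adjusted p = 2.63e-05, SE 0.05) and its log2 fold change was -0.05 with all 6 libraries (edgeR adjusted p = 0.951, SE 0.42). The call held in each of 9 count-based alternatives of the 5-library fit and was lost on TPM (log2 difference -0.23, limma adjusted p = 0.297). ATM, the kinase that answers double-strand breaks (chromosome 11), measured 63.8, 72.0 and 69.3 CPM in CAPE and 68.5, 69.1 and 11.6 CPM in DMSO. The CAPE values enclosed those of DMSO 1 and DMSO 2, and the log2 fold change without DMSO 3 was -0.01 (edgeR adjusted p = 0.898, SE 0.06). CHEK1, the effector kinase of ATR, measured 36.2, 38.3 and 40.4 CPM in CAPE and 40.3, 42.8 and 33.3 CPM in DMSO, and the groups overlapped (log2 fold change -0.12 without DMSO 3, edgeR adjusted p = 0.185). CHEK2, the effector kinase of ATM, measured 20.6, 21.3 and 23.1 CPM in CAPE, below the 24.3, 25.4 and 29.4 CPM of DMSO, but did not pass in either fit (log2 fold change -0.20, edgeR adjusted p = 0.065 without DMSO 3, and -0.28, adjusted p = 0.352, with it). CHEK2 has near-identical pseudogenes, of which the 4 listed in the table held 19 counts in all, and reads may be split among them.

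Genes of end resection moved in opposite directions. EXO1, a 5′ to 3′ exonuclease that lengthens the single-stranded ends (chromosome 1, 241847986 to 241889939), measured 77.2, 78.2 and 80.1 CPM in CAPE and 57.2, 58.8 and 54.7 CPM in DMSO. Every CAPE library lay above every DMSO library, DMSO 3 included. Its rise was 0.43 in log2 units without DMSO 3 (edgeR adjusted p = 1.82e-05, SE 0.05), with 0.46 from all 6 libraries (edgeR adjusted p = 0.165, SE 0.13). The 5-library call held in all 10 alternatives tried, TPM included. RBBP8, whose product CtIP starts resection (chromosome 18), measured 138, 151 and 142.2 CPM in CAPE, above the 120, 121 and 61.4 CPM of DMSO (log2 fold change 0.25 without DMSO 3, SE 0.05, edgeR adjusted p = 0.000851, and 0.51 with it, adjusted p = 0.355). RAD50, the ATPase that tethers broken ends (chromosome 5, 132556977 to 132646349), measured 99.3, 112 and 105 CPM in CAPE, against 137, 134 and 24.2 CPM in DMSO. CAPE lay below DMSO 1 and DMSO 2 and far above DMSO 3, so RAD50 fell by 0.37 in log2 units without DMSO 3 (edgeR adjusted p = 6.85e-05, SE 0.05), with 0.10 from all 6 libraries (edgeR adjusted p = 0.926, SE 0.60). On TPM without DMSO 3 the calls of RBBP8 and RAD50 were lost (limma adjusted p = 0.277 and 0.133). The partners of RAD50, named after their values were seen, were NBN at 62.8, 64.6 and 61.2 CPM in CAPE and 66.1, 71.4 and 30.8 CPM in DMSO (log2 fold change -0.13 without DMSO 3, edgeR adjusted p = 0.0826), and MRE11, which is outside the list and fell by 0.22 (edgeR adjusted p = 0.0119). DNA2, the other nuclease of long resection, had a log2 fold change of -0.08 (edgeR adjusted p = 0.437).

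**Figure D2:**
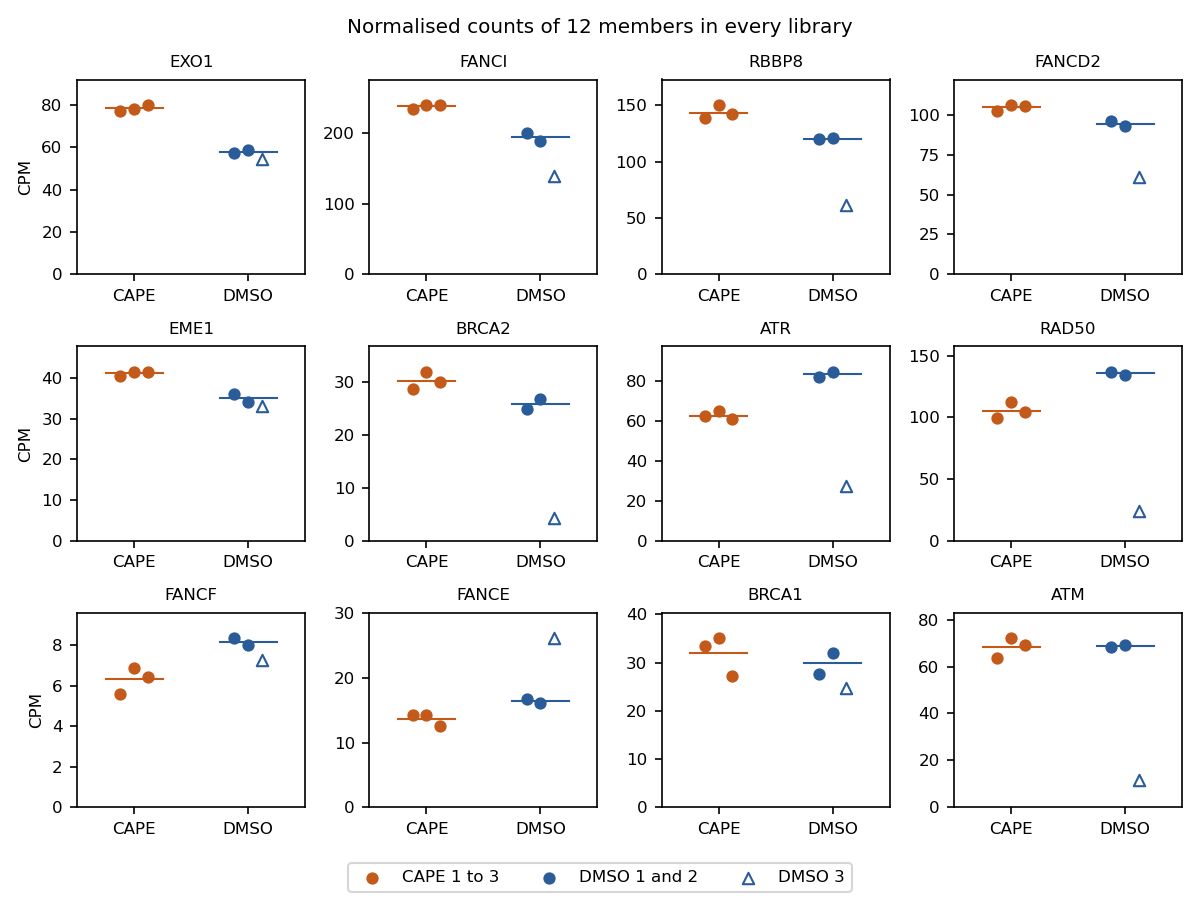
Normalised counts (CPM, from 0) of 12 genes in each CAPE library (left, orange) and each DMSO library (right, blue, with DMSO 3 as an open triangle); lines are means of the CAPE libraries and of DMSO 1 and 2. EXO1, FANCI, RBBP8 and EME1 are higher in every CAPE library than in any DMSO library, and for ATR and RAD50 the CAPE libraries lie between DMSO 3 and the other DMSO libraries.

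Promoters of 5 members are shown to set EXO1 and FANCD2, which rose, and XRCC2, which did not pass, all with E2F-type letters, beside ATR and RAD50, which fell and hold none. E2F factors are known to drive genes of S phase. These 5 were picked by their calls and letters, so they show no relation between the 2. RBBP8, BRCA2, FANCB, FANCG and EME1 rose without such letters, and FANCC and GEN1 hold them and did not pass. EXO1 has 2 listed promoters, and the first that holds the letters is shown. Each sequence runs 5′ to 3′ on the gene's strand from 250 bases before to 50 after a RefSeq start (GRCh38.p14), and capitals mark TTTCCCGC, TTTGGCGC or TTTCGCGC on either strand.
EXO1 (chr1:241847954-241848253, plus strand): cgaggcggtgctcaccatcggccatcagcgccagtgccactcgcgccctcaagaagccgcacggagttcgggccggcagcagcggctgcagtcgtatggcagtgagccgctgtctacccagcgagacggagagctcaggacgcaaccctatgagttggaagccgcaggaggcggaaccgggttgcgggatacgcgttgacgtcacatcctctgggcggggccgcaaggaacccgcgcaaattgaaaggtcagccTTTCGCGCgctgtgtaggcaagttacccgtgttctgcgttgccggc
FANCD2 (chr3:10026187-10026486, plus strand): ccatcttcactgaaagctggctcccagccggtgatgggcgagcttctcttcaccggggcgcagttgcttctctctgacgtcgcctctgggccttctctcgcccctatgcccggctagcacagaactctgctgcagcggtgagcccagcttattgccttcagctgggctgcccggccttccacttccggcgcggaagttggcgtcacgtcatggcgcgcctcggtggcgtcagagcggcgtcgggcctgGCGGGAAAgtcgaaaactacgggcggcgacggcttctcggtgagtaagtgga
XRCC2 (chr7:152676092-152676391, minus strand): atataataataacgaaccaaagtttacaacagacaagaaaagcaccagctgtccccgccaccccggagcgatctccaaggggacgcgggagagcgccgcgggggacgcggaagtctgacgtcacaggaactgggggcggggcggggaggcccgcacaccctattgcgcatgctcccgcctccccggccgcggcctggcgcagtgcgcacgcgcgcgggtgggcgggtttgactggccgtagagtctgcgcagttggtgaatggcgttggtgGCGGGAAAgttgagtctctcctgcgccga
ATR (chr3:142578684-142578983, minus strand): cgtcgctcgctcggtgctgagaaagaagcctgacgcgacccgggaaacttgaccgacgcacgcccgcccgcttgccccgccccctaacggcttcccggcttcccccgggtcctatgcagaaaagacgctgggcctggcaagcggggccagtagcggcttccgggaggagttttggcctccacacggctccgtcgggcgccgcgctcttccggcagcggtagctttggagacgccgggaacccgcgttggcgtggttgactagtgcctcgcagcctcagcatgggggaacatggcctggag
RAD50 (chr5:132556727-132557026, plus strand): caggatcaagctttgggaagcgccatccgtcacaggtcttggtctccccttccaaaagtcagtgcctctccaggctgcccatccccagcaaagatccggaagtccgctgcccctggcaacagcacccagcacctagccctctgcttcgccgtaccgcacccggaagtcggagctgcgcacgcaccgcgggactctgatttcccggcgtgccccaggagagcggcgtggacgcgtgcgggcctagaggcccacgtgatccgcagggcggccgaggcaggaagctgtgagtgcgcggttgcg

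Of the 35 members 31 had at least 1 promoter in the RefSeq table, and NBN, DNA2, RAD54B and FANCI had none there. The E2F-type letters were present in 5 of the 31 (16.1%), namely EXO1, XRCC2, FANCC, FANCD2 and GEN1, and in 5.49% of 10069 tested genes. Of these 5 members 2 rose and none fell without DMSO 3, and of the 26 others 5 rose and 4 fell. In that fit 20.4% of all genes rose and 20.8% fell, and 5 members are too few to compare with these shares. The letters CCAAT, the box bound by NF-Y, were in 13 of the 31 (41.9%), against 43.4% of tested genes, and TTTGAA or TTCGAA, the core of the cell cycle homology region of late cell cycle genes, in 3 (9.68%), against 15.6%. Both strands were searched, the E2F-type letters printed above overlap no match of the other motifs, and a match is a description of letters and not a bound site.

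The BRCA mediators, which act on the trimmed end before strand exchange, showed little change. BRCA1, a ubiquitin ligase that favours resection (chromosome 17), measured 33.4, 35.04 and 27.3 CPM in CAPE and 27.7, 31.9 and 24.6 CPM in DMSO. The groups overlapped, with CAPE 3 below DMSO 1 (log2 fold change 0.09 without DMSO 3, SE 0.10, edgeR adjusted p = 0.489). Its obligate partner BARD1 had a log2 fold change of -0.02 (edgeR adjusted p = 0.828, SE 0.07). PALB2, which bridges BRCA1 and BRCA2 (chromosome 16), measured 40.9, 37.9 and 40.3 CPM in CAPE and 42.3, 41.7 and 19.5 CPM in DMSO, with no pass (log2 fold change -0.08 without DMSO 3, edgeR adjusted p = 0.325). BRCA2, a mediator of strand exchange (chromosome 13), measured 28.7, 32.1 and 30.2 CPM in CAPE and 24.98, 26.8 and 4.38 CPM in DMSO. BRCA2 was higher in every CAPE library than in any DMSO library, by a log2 fold change of 0.22 without DMSO 3 (edgeR adjusted p = 0.0328, SE 0.08) and 0.69 with it (edgeR adjusted p = 0.504, SE 0.61). The BRCA2 call was lost without CAPE 2 (adjusted p = 0.104), CAPE 3 (0.0685), DMSO 1 (0.212) or DMSO 2 (0.0532), and also with DESeq2 (0.131), no filter (0.0622), a length offset (0.0795) or TPM (limma, 0.111).

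BRCA2 also showed a gap between counts and TPM. Its TPM were 5.06, 11.9 and 13.4 in CAPE 1, 2 and 3 and 4.80, 4.03 and 0.707 in DMSO 1, 2 and 3, although its CPM differed by little among the CAPE libraries. The transcript length implied by counts over TPM, relative to the median gene, was 4.19, 2.02 and 1.66 in CAPE and 3.81, 4.88 and 2.05 in DMSO. This length varied 2.93-fold over the 5 libraries without DMSO 3. TPM of BRCA2 are therefore not read as a change between groups. For the same reason the loss of its call on TPM, given above, is not read as a weaker change.

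None of the 7 cofactors of strand exchange passed in either fit. Roles hold 2 to 8 genes, too few to compare with the 41.2% of all genes that passed without DMSO 3. The log2 fold changes of the 7 cofactors without DMSO 3 were all positive and close together, from 0.11 for RAD51D to 0.22 for RAD54B. Their median was 0.17, and 50.3% of all genes were above 0. XRCC2, which helps the trimmed strand to pair, had the smallest p, with 51.7, 58.6 and 56.6 CPM in CAPE and 50.4, 48.4 and 12.04 CPM in DMSO (log2 fold change 0.17, SE 0.07, edgeR adjusted p = 0.057). It lay higher in every CAPE library than in any DMSO library. The related genes RAD51C, RAD51D and XRCC3 had adjusted p of 0.0857, 0.281 and 0.139 (edgeR), RAD51AP1, which stimulates strand pairing, 0.0576, and the DNA translocases RAD54L and RAD54B 0.119 and 0.125. With 6 libraries XRCC3 was the 1 of these 7 with a negative log2 fold change (-0.25), where DMSO 3 held 52.7 CPM of it, against 26.9 and 24.6 CPM in DMSO 1 and 2.

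Of 8 genes of the Fanconi core complex 2 rose, 2 fell and 4 did not pass without DMSO 3. In that fit 20.4% of all genes rose and 20.8% fell. FANCB, which sits beside the ligase FANCL, measured 17.8, 20.5 and 19.6 CPM in CAPE and 12.9, 17.5 and 7.66 CPM in DMSO. DMSO 2 came close to CAPE 1, and the log2 fold change was 0.34 (edgeR adjusted p = 0.0363, SE 0.12 without DMSO 3). FANCG, an adaptor bound to FANCA, measured 52.5, 55.0 and 52.9 CPM in CAPE and 47.4, 47.9 and 106 CPM in DMSO. FANCG rose by 0.16 without DMSO 3 (edgeR adjusted p = 0.0422, SE 0.06), while the sign was negative with all 6 libraries (-0.33, edgeR adjusted p = 0.568). FANCE and FANCF, which form a subcomplex with FANCC that receives FANCD2, were the 2 lower. FANCE measured 14.3, 14.3 and 12.5 CPM in CAPE, below the 16.8, 16.2 and 26.1 CPM of DMSO, and FANCF 5.60, 6.86 and 6.44 CPM in CAPE, below the 8.33, 7.99 and 7.25 CPM of DMSO. FANCE fell by 0.27 and FANCF by 0.38 in log2 units without DMSO 3 (edgeR adjusted p = 0.0442 and 0.0348), and FANCF is the lowest of the 35, at 106 to 129 counts a library in CAPE. FANCC, the third of that subcomplex, had a log2 fold change of -0.01 (SE 0.07).

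These 4 core calls were close to the threshold. Each was lost without certain libraries: FANCB without CAPE 2, CAPE 3 or DMSO 1 (edgeR adjusted p = 0.102, 0.0833 and 0.443), FANCG without CAPE 2, CAPE 3, DMSO 1 or DMSO 2 (0.0786 to 0.145), FANCF without CAPE 1, CAPE 3, DMSO 1 or DMSO 2 (0.0683 to 0.139), and FANCE without any 1 of the 5 (0.0513 to 0.165). All 4 were also lost with DESeq2 (adjusted p from 0.0854 for FANCB to 0.167 for FANCF) and with no filter on low counts (edgeR adjusted p from 0.0521 for FANCF to 0.0732 for FANCG). On TPM, FANCG passed (limma adjusted p = 0.0196) and FANCB, FANCE and FANCF did not (0.179, 0.203 and 0.208). FANCA, the core subunit that binds FANCG, measured 81.9, 85.2 and 86.5 CPM in CAPE and 82.1, 71.8 and 67.5 CPM in DMSO, overlapping by CAPE 1 and DMSO 1 (log2 fold change 0.13 without DMSO 3, edgeR adjusted p = 0.10). FANCL, the ubiquitin ligase, and FANCM, the translocase that anchors the complex on DNA, had log2 fold changes of -0.06 and -0.03 (SE 0.07 and 0.10).

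Both genes of the clamp that the core complex modifies were higher without DMSO 3, where 20.4% of all genes were. FANCI (chromosome 15, 89243979 to 89317259) measured 234, 240 and 240 CPM in CAPE and 200, 189 and 139 CPM in DMSO. FANCI rose by 0.29 without DMSO 3 (edgeR adjusted p = 7.94e-05, SE 0.04), with 0.44 from all 6 libraries (edgeR adjusted p = 0.311, SE 0.18), and the 5-library call held in all 10 alternatives. FANCD2 measured 102, 106 and 106 CPM in CAPE, above the 95.9, 93.1 and 60.8 CPM of DMSO (log2 fold change 0.15 without DMSO 3, SE 0.05, edgeR adjusted p = 0.0262). Its call was lost without CAPE 2 (adjusted p = 0.0585), CAPE 3 (0.0747), DMSO 1 (0.0598) or DMSO 2 (0.153), with DESeq2 (0.0766) and on TPM (limma, 0.0854). USP1, the enzyme that takes the ubiquitin off this clamp, is outside the list and was named after its values were seen. It measured 245, 254 and 244 CPM in CAPE and 182, 202 and 91.4 CPM in DMSO (log2 fold change 0.36 without DMSO 3, SE 0.05, edgeR adjusted p = 3.87e-05). WDR48, also outside the list and named after its values were seen, went the other way. It measured 54.5, 57.8 and 56.0 CPM in CAPE and 60.6, 66.3 and 46.7 CPM in DMSO (log2 fold change -0.18 without DMSO 3, SE 0.06, edgeR adjusted p = 0.0295).

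Among 5 nucleases and resolvases EME1 was the 1 that passed without DMSO 3, where 41.2% of all genes passed. EME1, the partner that makes MUS81 an active endonuclease (chromosome 17), measured 40.6, 41.6 and 41.5 CPM in CAPE and 36.2, 34.1 and 33.3 CPM in DMSO. Its 6 libraries were spread tightly and did not overlap between groups. EME1 rose by 0.23 without DMSO 3 (edgeR adjusted p = 0.013, SE 0.07), a call lost without DMSO 2 (adjusted p = 0.111) and with DESeq2 (adjusted p = 0.0619). MUS81 itself had a log2 fold change of 0.12 (edgeR adjusted p = 0.219, SE 0.08), GEN1, a Holliday junction resolvase, 0.13 (adjusted p = 0.141), FAN1, a crosslink nuclease, 0.12 (adjusted p = 0.153), and SLX4, the scaffold of several nucleases, -0.09 (adjusted p = 0.385).

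Levels per transcript length are given in TPM (transcripts relative to all transcripts of a library). FANCI was highest, with a mean of 132 TPM in CAPE and 102 TPM in DMSO 1 and 2, and FANCF lowest, with 2.22 TPM in CAPE and 2.89 TPM in DMSO 1 and 2. The median member stood at 29.9 TPM in CAPE and 27.0 TPM in DMSO 1 and 2. RBBP8 (82.3 TPM in CAPE, 74.4 in DMSO 1 and 2), RAD51C (76.5 and 71.8), FANCA (88.3 and 70.2) and FANCD2 (73.5 and 60.9) followed FANCI, and SLX4, FANCM, FANCE and BRCA2 stood with FANCF at the low end. Summed over the 35 members the level was 1261, 1344 and 1320 TPM in CAPE, against 1160, 1160 and 411 TPM in DMSO 1, 2 and 3. The sum was higher in each CAPE library than in any DMSO library, and DMSO 3 stood far below the rest. In estimated counts, not scaled to library totals, the sums were 33692, 35533 and 35971 in CAPE and 33239, 33224 and 17314 in DMSO. CAPE 1 thus lay close to DMSO 1 and 2 in counts, and no such sum was made for other genes. BRCA2, whose transcript length shifted between libraries, is part of these sums.

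**Figure D3:**
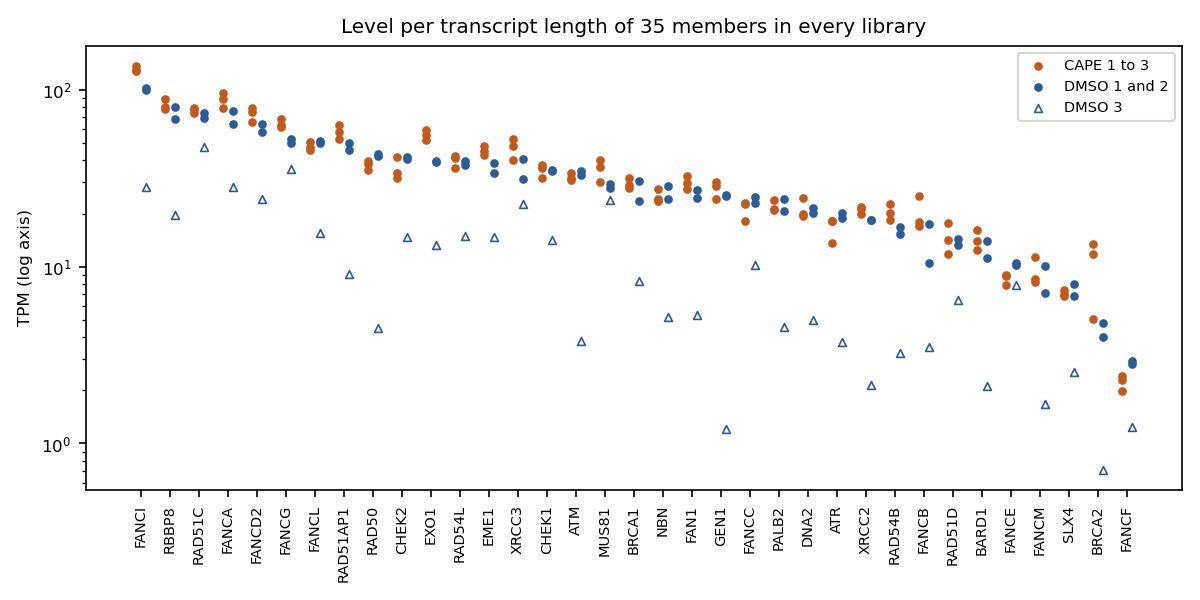
Level of 35 genes in TPM (log axis) in each CAPE library (orange, left of each position) and each DMSO library (blue, right, DMSO 3 as an open triangle), ordered by the mean of DMSO 1 and 2. FANCI leads and FANCF is lowest, DMSO 3 lies below the other libraries for every gene shown except FANCE, and BRCA2 is spread widest among the CAPE libraries.

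The members' values in DMSO 3 were mostly low. Their median deviation in it from DMSO 1 and 2 was -0.48 on the log2 CPM scale, beside 0.00 over all genes, and 12 of the 35 lay at least 2-fold below, where 21% of all genes did. ATM, BRCA2, RAD50, GEN1 and XRCC2 lay lowest, by -2.55, -2.53, -2.48, -2.13 and -2.03, and FANCG and XRCC3 highest, by 1.16 and 1.03. The median relative transcript length of the members was 1.17, against 0.97 over all genes tested. Across the 35 members the deviation ran with log2 transcript length at Pearson r = -0.63 (Spearman rho = -0.65), and at r = -0.40 over 13595 genes. The points share their libraries, and length was itself estimated from 5 of them. The log2 fold change without DMSO 3 ran with length at r = -0.33 across the members and -0.01 across all genes. With all 6 libraries these were 0.26 across the members and 0.25 across all genes, and all 4 are descriptions.

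**Figure D4:**
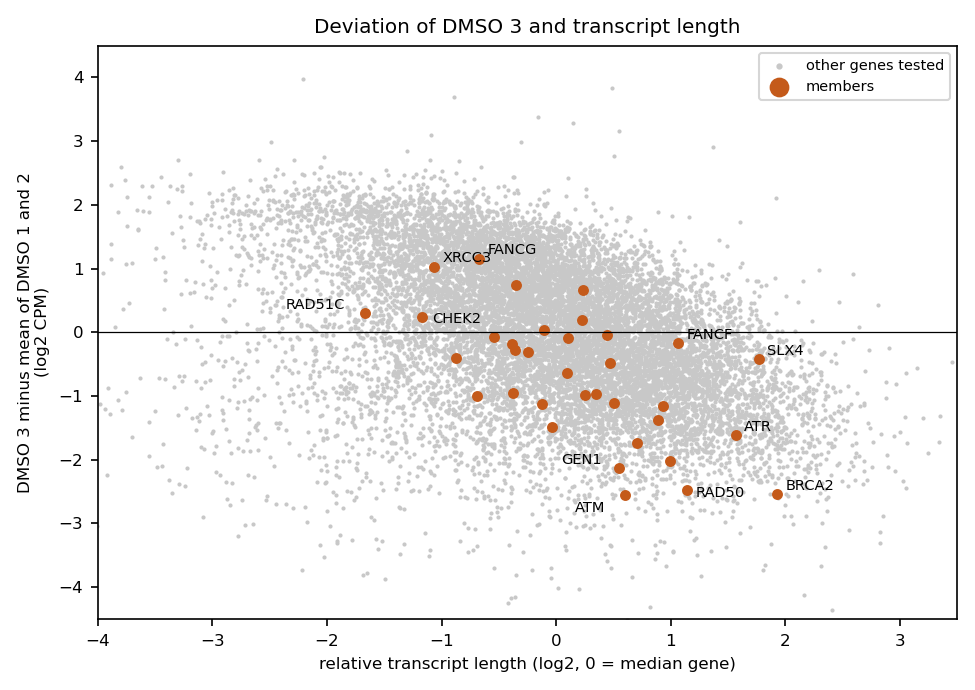
Difference of DMSO 3 from the mean of DMSO 1 and 2 (log2 CPM) against relative transcript length (log2, 0 at the median gene) for 35 members (orange) and the other genes tested (grey). Of 20 members longer than the median gene 18 lie below zero, and of 15 shorter ones 9 lie below and 6 above; 82 genes, no member among them, lie outside the axes.

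Some members start close to a gene read in the other direction. A protein-coding neighbour on the opposite strand started within 1000 bases upstream of a listed start for 12 of the 31 members with a promoter entry (38.7%), against 16.2% of 10040 tested protein-coding genes. Both genes were tested in 10 of these pairs, and the log2 fold changes without DMSO 3 had the same sign in 5 of the 10. EME1 and MRPL27, a mitochondrial ribosomal protein gene that starts 45 bases away, moved apart: MRPL27 fell by 0.37 in log2 units (edgeR adjusted p = 0.000706, SE 0.07) where EME1 rose. GEN1 (0.13) and SMC6 (0.27, edgeR adjusted p = 0.0021), a subunit of the SMC5-SMC6 complex that starts 59 bases away, had the same sign. XRCC3 (0.18) and ZFYVE21 (-0.26, edgeR adjusted p = 0.0274), which starts 359 bases away, had opposite signs. ATM (-0.01) and NPAT (0.13), the activator of histone genes, did not pass, nor did PALB2 (-0.08) and DCTN5 (-0.10) or FANCB's neighbour MOSPD2 (0.14). The paired starts lie apart and face away from each other. Whether the libraries kept strand is not given in the sources used here. Reads of any transcripts of a pair that overlap from other starts therefore cannot be told apart.

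Other genes of these routes were read from a list of 59, all of them tested. With 6 libraries none passed (0 of 59, edgeR, with 1 at an unadjusted p under 0.05, and 1 by DESeq2), and without DMSO 3, 9 rose and 8 fell (28.8%, beside 41.2% of all genes). The largest rises included EME2, the other partner of MUS81 (29.9, 31.6 and 29.6 CPM in CAPE, against 22.2, 21.9 and 8.62 CPM in DMSO, log2 fold change 0.46 without DMSO 3, edgeR adjusted p = 0.000213), and RMI2, a subunit of the BLM dissolvasome (0.42, adjusted p = 0.0077). The largest falls were in H2AFX, the histone variant that marks breaks, in RAD52, an annealing factor (-0.40, edgeR adjusted p = 0.00824), and in CDK12, the transcription kinase known to sustain long repair genes. H2AFX measured 36.2, 33.8 and 31.5 CPM in CAPE, against 61.0, 58.5 and 221 CPM in DMSO, a fall of 0.82 in log2 units without DMSO 3 (edgeR adjusted p = 2.58e-07). CDK12 measured 108, 119 and 108 CPM in CAPE, against 149, 136 and 73.6 CPM in DMSO (-0.36 without DMSO 3, edgeR adjusted p = 0.000131). Of 16 genes of end joining, the route that ligates breaks with no template, 2 fell and none rose without DMSO 3 (12.5%), namely the KU subunits XRCC5 and XRCC6 (-0.30 and -0.25, edgeR adjusted p = 1.77e-05 and 7.48e-05), and none passed with 6 libraries (edgeR, with 2 at an unadjusted p under 0.05, and 0 by DESeq2). No test was made between the lists.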

How the data were processed

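mRNA of 3 CAPE and 3 DMSO samples was analysed. Per the submitters' processing notes, reads went through bcl2fastq and kallisto 0.46.1 against GRCh38; no source used here names the annotation, how transcripts were summed to genes, or whether strand was kept. The deposited estimated counts are whole numbers, but 32 to 65 genes a library had TPM above 0 beside a count of 0, so they are rounded. The authors' deposited TPM divide counts by transcript length.

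Counts were filtered with filterByExpr, scaled by TMM and compared by edgeR's quasi-likelihood test (R 4.3.3, edgeR 4.0.16, limma 3.58.1, DESeq2 1.42.0), with Benjamini-Hochberg adjustment over all genes and a threshold of 0.05, for 6 libraries and without DMSO 3. CPM use TMM-scaled totals, and log2 CPM a prior count of 2. SE is the log2 fold change over the root of F. Relative transcript length is counts over TPM, median of 5 libraries, against the median gene. The fits were also run on simulated counts, which held no shift of DMSO 3 with transcript length and so do not bear on it. Coordinates, promoters and neighbours are RefSeq's (GRCh38.p14).

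The members and lists were chosen with earlier results of these data known. Values in every library are given for members passing with 6 libraries, the 6 largest rises and falls without DMSO 3, BRCA1, BRCA2, PALB2, FANCD2, FANCI, FANCA, ATM, ATR, CHEK1, CHEK2, and the smallest p of a role with none of these, and values for the 3 largest rises and falls of the other pathway list, of which 1 is not reported here. FANCG, NBN, XRCC3, MRE11, USP1 and WDR48 were added after their values were seen. Alternatives covered other size factors, filters, tools, units, a length offset, a replicate block and each library left out.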

Additional observations from a re-analysis of the deposited data

How the results depend on the processing

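The number of genes passing with 6 libraries was 265, and became 856 with DESeq2, 408 with a length offset, 135 and 88 with limma on log2(TPM + 1) and log2(TPM + 0.1), 61 on log2(TPM + 1) with no filter, 5592 with voom library weights, and 0 to 5731 with each library left out, the highest without DMSO 3. Where it was 0, without CAPE 1 or CAPE 3 (edgeR), 1178 and 1099 genes had an unadjusted p under 0.05. Members passing with 6 libraries numbered 0, became 10 with library weights (6 higher, 4 lower), and 0 to 12 (higher 0 to 8, lower 0 to 4) with each library left out. Other pathway genes became 1 with DESeq2, 18 with library weights and 0 to 17 by leaving out, and end joining genes 3 with library weights and 0 to 2 by leaving out. The replicate block gave 0 passing genes and members (edgeR, 1384 genes and 0 members at an unadjusted p under 0.05), with ATR at 0.11. Same-numbered libraries deviated from their group means together at correlations of -0.19, 0.14 and -0.01. With DMSO 3 in the DMSO mean, DMSO 1 and DMSO 2 were correlated alike with CAPE 1 (-0.19 and -0.18) and CAPE 2 (0.21 and 0.14). These values therefore cannot tell whether replicate numbers pair the samples.

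Without DMSO 3, the 12 members passing (8 higher, 4 lower) became 5 with DESeq2 (3 and 2), 7 with no filter (5 and 2), 4 with limma on log2(TPM + 1) (4 and 0, of 3046 genes), and 7 to 14 with each library left out (4 to 12 higher, 2 to 3 lower); 1 remaining DMSO library was assumed to vary like the others. End joining genes became 4 with a length offset. EXO1 and FANCI passed in all 10 alternatives, and ATR, RAD50 and RBBP8 in all but TPM. The median of the members with 6 libraries ran from 0.12 to 0.71, the highest on TPM.

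Signs of log2 fold changes turned as follows. With 6 libraries, RAD50 was -0.35 and PALB2 -0.077 with library weights, CHEK1 0.032 and RAD50 -0.020 with the length offset, ATR 0.48, CHEK1 0.42 and CHEK2 0.26 on log2(TPM + 1) with or without a filter, and ATR 0.54, CHEK1 0.44, CHEK2 0.28 and FANCF 0.018 on log2(TPM + 0.1). Without DMSO 3 on TPM, DNA2 was 0.018, BARD1 0.16 and FANCM 0.12. With each library left out of 6, ATM ran from -0.012 to 0.77, ATR from -0.42 to 0.19, CHEK1 from -0.12 to 0.050, RAD50 from -0.37 to 0.41 and PALB2 from -0.084 to 0.37, each lowest without DMSO 3. With each left out of 5, ATM ran from -0.046 to 0.037, BRCA1 from -0.0090 to 0.20, FANCC from -0.027 to 0.0090, FANCM from -0.14 to 0.087 and SLX4 from -0.20 to 0.021. The causes were not tested.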
